A study of Mus musculus with 9 samples.

Results

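The genes described here code for the proteins of the cytosolic ribosome and for their close relatives, among them Rpl3l, the form of ribosomal protein L3 made in heart and skeletal muscle. They were chosen by symbol: Rpl or Rps followed by a number, together with Rplp0 to Rplp2 and Rpsa, without Rps6k kinases and without symbols marked as pseudogenes. A gene was measured where a probe set of the array carried its symbol and no other, and of several such probe sets the one with the highest mean was kept. This gave 45 members of the 30145 genes measured. Of these, 33 are ribosomal proteins and 10 are paralogues or retrogenes (Rpl3l, Rpl6l, Rpl7l1, Rpl10l, Rpl22l1, Rpl32l, Rpl39l, Rps3a2, Rps3a3 and Rps27l). The other 2 are Rps19bp1, a binding partner of Rps19, and Rps23rg1, a retrogene derived from Rps23. Rpl6l carries no pseudogene mark in its symbol but is a pseudogene in RefSeq, and Rps3a2 and Rps3a3 matched no RefSeq gene.

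A ribosome is built from ribosomal RNAs and a set of proteins that most cells make in step with one another. Small subunit proteins (Rps) help decode the mRNA, and large subunit proteins (Rpl) surround the centre where peptide bonds form. The mRNAs of these proteins typically start with a C followed by a tract of C and U, the 5′ terminal oligopyrimidine (TOP) tract, through which mTOR and Larp1 regulate their translation. Rpl3 lies close to the peptidyl transferase centre, and in mature heart and skeletal muscle Rpl3l can take its place in the ribosome.

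Whole hearts of immunodeficient nude mice were profiled on Affymetrix whole-transcript arrays 6 weeks after treatment. In all groups, sham included, the left anterior descending artery had been tied permanently, and mice with an ejection fraction under 50% entered the study 3 weeks later. The vesicles group (3 arrays) received the extracellular vesicles, small membrane particles, that 500000 cardiovascular progenitor cells released in 48 hours, the cells group (3 arrays) received 500000 of those cells, the control group (2 arrays) received alpha-MEM, a culture medium, and the sham heart (1 array) received needle insertions with nothing injected. The array titles name 2 experiments. Experiment 9 holds sham 1, control 1, vesicles 1 and cells 1, and experiment 1 holds control 2, vesicles 2 and 3, and cells 2 and 3. Each array also carries a VTS number, whose meaning the labels do not state: VTS3 marks all experiment 9 arrays, VTS1 control 2, vesicles 2 and cells 2, and VTS2 vesicles 3 and cells 3. The labels do not state the age or sex of the mice, nor that each array is a separate animal, so p-values measure only the spread between these arrays, which may be technical. In whole hearts, fewer cells of a type and less RNA per cell cannot be told apart.

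Values are deposited log2 values, on which 1 unit is a doubling. Background was set at percentile 95 of the values of the array's negative controls, 7.18 to 7.28 by array. The kept probe sets of 28 members lay above it on all 9 arrays, against 20.1% of all genes. Another 13 members lay above it on no array: Rpl6, Rpl7, Rpl10l, Rpl11, Rpl22l1, Rpl31, Rpl39l, Rps9, Rps14, Rps18, Rps19, Rps27l and Rps28. Rps10, Rps24, Rps19bp1 and Rps23rg1 passed it on some arrays. Many values are tied: 26 members repeated a single value on at least 3 arrays, as did 61.1% of all genes, and ties narrow a gene's spread. Ribosomal protein genes have many near-identical processed copies, so the probe set of a member may also read copies. For 6 of 43 members (Rpl7a, Rpl12, Rpl27, Rpl31, Rpl35 and Rpl41) the chromosome in the probe set's name is not the gene's own in RefSeq. Of the 22809 probe sets of 1 symbol that could be checked, 98.8% matched. Another 43 symbols of the family stood only on probe sets listed for several symbols and were not used; Rpl3, Rplp1 and Rplp2 are among them. On the heart side, the 9 measured cardiomyocyte markers averaged 11.5 to 11.7 on every array. The 5 lung markers stood apart on vesicles 3, where their mean was 8.05 against 5.06 to 5.66 on the other 8 arrays. Sham 1 was next, at 5.66. Vesicles 3 belongs to experiment 1, and the difference within experiment 9 does not use it.

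The start sites of 8 members are shown because the TOP tract lies there. The windows below run from 15 bases before to 15 bases after the first transcribed base in RefSeq (GRCm38.p6), and capitals mark the longest run of at least 8 C or T on the coding strand. Rpl35, Rpl38, Rps10 and Rps18 stand for members with such a run, Rps15, Rplp0 and Rpsa for the larger number without one, and both listed starts of Rpl3l are shown because the results turn on it.
Rpl35 (chr2:39005117-39005146, minus strand): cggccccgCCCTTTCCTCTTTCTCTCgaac
Rpl38 (chr11:114668565-114668594, plus strand): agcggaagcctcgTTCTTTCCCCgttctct
Rps10 (chr17:27635230-27635259, minus strand): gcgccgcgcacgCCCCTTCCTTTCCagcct
Rps18 (chr17:33955651-33955680, minus strand): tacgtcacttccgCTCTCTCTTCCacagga
Rps15 (chr10:80292416-80292445, plus strand): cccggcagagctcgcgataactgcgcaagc
Rplp0 (chr5:115559452-115559481, plus strand): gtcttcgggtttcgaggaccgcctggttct
Rpsa (chr9:120127751-120127780, plus strand): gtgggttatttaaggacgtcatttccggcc
Rpl3l, first start (chr17:24727811-24727840, plus strand): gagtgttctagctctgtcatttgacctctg
Rpl3l, second start (chr17:24732670-24732699, plus strand): gtcatcaacagctacagtgccccaaatgtc
The longest run in these windows was 18 bases for Rpl35 and 13 for Rps10, and 5 and 4 for the starts of Rpl3l. RefSeq promoters were matched for 37 of the 45 members, 45 start sites in all. A run was found at 16 of these 45 starts (35.6%), each of a different gene, and at 12% of 32851 starts of all genes. At the 34 starts of members annotated as a ribosomal protein it was found at 12 (35.3%). Most of these starts, like both starts of Rpl3l, thus held no run of at least 8 bases. Shorter runs, such as the 5 bases of Rplp0 and Rpsa, were not counted, and a C at the start was not required. The counts therefore do not tell how many members have a TOP tract. The consensus of MEF2, a factor of muscle gene transcription, was searched by name on both strands of each 300-base promoter. It was present in 1 member promoter (2.22%) and in 3.19% of all promoters. The member was Rpl3l, where the 10-base match spans positions −123 to −114 from the second start and is capitalised here with its surroundings (GRCm38.p6).
Rpl3l, match and flanks (chr17:24732537-24732596, plus strand): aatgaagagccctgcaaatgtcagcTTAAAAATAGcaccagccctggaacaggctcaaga
These matches describe the letters in the windows; no binding or start site was measured.

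Rpl3l had the widest range of the 45 members over the 9 arrays, 0.34 against a median of 0.14 for members and 0.20 for all genes. In experiment 9 its log2 value was 8.45 in sham 1, 8.75 in control 1, 8.63 in vesicles 1 and 8.79 in cells 1. In experiment 1 it was 8.62 in control 2, 8.52 in both vesicles 2 and vesicles 3, and 8.63 in both cells 2 and cells 3. Sham 1 was thus the lowest array and cells 1 the highest. The place of Rpl3l as the widest rests on sham 1. Over the 8 injected arrays it ran from 8.52 to 8.79, a narrower span than that of Rpl32l (9.79 to 10.09). Within each experiment the vesicles arrays lay below the control and cells arrays, while across experiments the groups overlap: vesicles 1 lay above control 2.

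Vesicles minus control, the fitted log2 difference of Rpl3l was −0.11 ± 0.020 (SE; 95% interval −0.16 to −0.057), or 0.928-fold. The experiment entered this limma fit as a block. The difference was −0.12 in experiment 9 and −0.10 in experiment 1, and −0.11 overall without vesicles 3. It did not pass the test across all genes (limma, Benjamini-Hochberg adjusted p = 0.675 against the threshold of 0.05, unadjusted p = 0.0026). By unadjusted p it ranked 99 of 30145 genes. With the sham heart counted among the controls the difference shrank to −0.023. Vesicles minus cells, Rpl3l differed by −0.13 ± 0.018 (0.917-fold, 95% interval −0.17 to −0.081), with −0.16 in experiment 9, −0.11 in experiment 1 and −0.13 overall without vesicles 3. It ranked 21 by unadjusted p (0.00072) and likewise failed the adjustment (limma, adjusted p = 0.920). Vesicles lay below cells within each VTS number, by −0.16 in VTS3, −0.11 in VTS1 and −0.10 in VTS2; an exact sign-flip test of 3 such values cannot give a two-sided p below 0.25. Cells minus control, the difference was 0.018 ± 0.020 (95% interval −0.032 to 0.068), with an adjusted p of 0.843 from limma. Its sign turned with quantile normalization (−0.023), without the experiment block (−0.0045) and without cells 1 (−0.0013).

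The Rpl3l difference between experiments was about the size of those of vesicles from control and from cells, and larger than that of cells from control. Over the injected arrays, Rpl3l was 0.13 ± 0.016 higher in experiment 9 than in experiment 1 (1.10-fold, 95% interval 0.094 to 0.18). It ranked 34 by unadjusted p (limma, 0.00031). Its adjusted p from limma, 0.212, was the lowest value in this comparison and was shared with other genes, Myl2 and Tagln among them. The cardiomyocyte markers also lay higher there, 9 of 9 with a median of 0.075, none past the adjusted threshold. Their mean deviation was 0.089 in cells 1, 0.060 in control 1, 0.049 in vesicles 1 and −0.020 in sham 1, and −0.076 to −0.011 in experiment 1. The 3 arrays highest in these markers were also the 3 highest in Rpl3l, whereas sham 1, the lowest in Rpl3l, was not the lowest in the markers. The place of vesicles 1 in Rpl3l is a near tie, at 8.6274 against 8.6264 in cells 3 and 8.6260 in cells 2. No gene of the other marker lists passed the adjusted threshold either. In experiment 9, 7 of 7 macrophage markers lay lower (median −0.27), as did 5 of 5 epicardial and mesothelial markers (median −0.13). Lower too were 6 of 7 fibroblast (median −0.046), 4 of 6 mural (median −0.11) and 5 of 5 lung markers (median −0.53). So were 6 of 6 T and NK lymphocyte, 3 of 3 B lymphocyte, 2 of 2 erythroid and 3 of 4 proliferation markers. Higher were 5 of 6 endothelial (median 0.025) and 4 of 6 skeletal muscle markers (median 0.0077). The markers' part in the Rpl3l values was not tested.

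**Figure D1:**
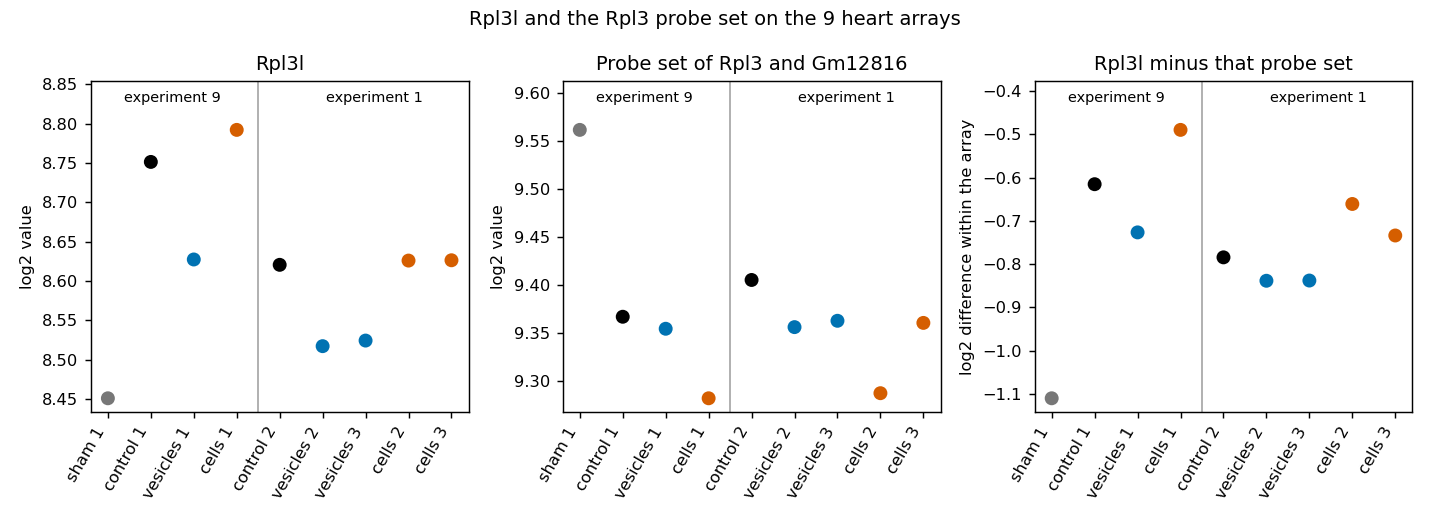
Log2 value on each of the 9 arrays (points, coloured by group; sham 1 grey, control black, vesicles blue, cells orange) of Rpl3l, of the probe set listed for Rpl3 and Gm12816, and their difference within the array; the vertical line separates the experiments. Rpl3l is lowest in sham 1 (8.45) and highest in cells 1 (8.79), and the shared probe set is highest in sham 1 (9.56) and lowest in cells 1 (9.28).

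Rpl3, the general form that Rpl3l replaces, has a single probe set on the array, which the platform table lists for Rpl3 and for the gene model Gm12816. Its signal cannot be assigned to either alone. In experiment 9 this probe set read 9.56 in sham 1, 9.37 in control 1, 9.35 in vesicles 1 and 9.28 in cells 1. In experiment 1 it read 9.40 in control 2, 9.36 in both vesicles 2 and vesicles 3, 9.29 in cells 2 and 9.36 in cells 3. Its order over the experiment 9 arrays was not that of Rpl3l: sham 1 was highest and cells 1 lowest. Its fitted differences were −0.033 ± 0.026 (vesicles minus control), −0.081 ± 0.026 (cells minus control), 0.048 ± 0.023 (vesicles minus cells) and −0.028 ± 0.021 (experiment 9 minus experiment 1). These values were fitted apart from the 30145 genes and carry no p.

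Rpl3l was then set against that probe set within each array; the level of this difference depends on both probe sets, and only its change between arrays can be read. It was −0.70 ± 0.12 in control (SD, n = 2), −0.80 ± 0.064 in vesicles (SD, n = 3) and −0.63 ± 0.13 in cells (SD, n = 3). By array it was −1.11 in sham 1, −0.62 in control 1, −0.73 in vesicles 1 and −0.49 in cells 1. In experiment 1 it was −0.78 in control 2, −0.84 in both vesicles 2 and vesicles 3, −0.66 in cells 2 and −0.73 in cells 3. In both experiments the order from lowest to highest was vesicles, control, cells, and sham 1 lay below all other arrays.

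None of these 4 comparisons passed an exact permutation test. That test used the plain difference of group means, whereas values with ± (SE) come from a least-squares fit with experiment as block. Vesicles minus cells was −0.17 ± 0.031 by the blocked fit (−0.24 in experiment 9, −0.14 in experiment 1), with a two-sided exact p of 0.2 over 20 relabelings (adjusted over the 4 comparisons, 0.4). Vesicles minus control was −0.074 ± 0.035 by the fit and −0.10 between group means (exact permutation p = 0.3, adjusted 0.4). Its fitted value turned to 0.062 with the sham heart among the controls. Cells minus control was 0.099 ± 0.035 by the fit and 0.072 between group means (exact permutation p = 0.6, adjusted 0.6). These designs cannot go below 0.1. Within VTS3, VTS1 and VTS2, vesicles minus cells was −0.24, −0.18 and −0.10. Experiment 9 minus experiment 1 was 0.16 ± 0.028, with an exact p of 0.0536 (adjusted 0.214) where 0.0179 was the smallest possible. The unadjusted p passed 0.05 without vesicles 1 (0.0476) or without cells 2 (0.0286). The relabelings ignore the experiment, whose difference adds to the spread within groups.

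Over the whole set, no member and none of the 30145 genes passed an adjusted p of 0.05 in any of the 4 comparisons (limma; 0% called in each). Without control 1, limma called genes for vesicles minus control and for cells minus control, with no member among them. That fit rests on control 2 as the only control array, so its calls are not counted here. Control 2 was the highest of the 9 arrays for 24.5% of all genes and 3.84% of those above background. Every adjusted p in the following paragraphs comes from limma with Benjamini-Hochberg adjustment over all genes.

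**Figure D2:**
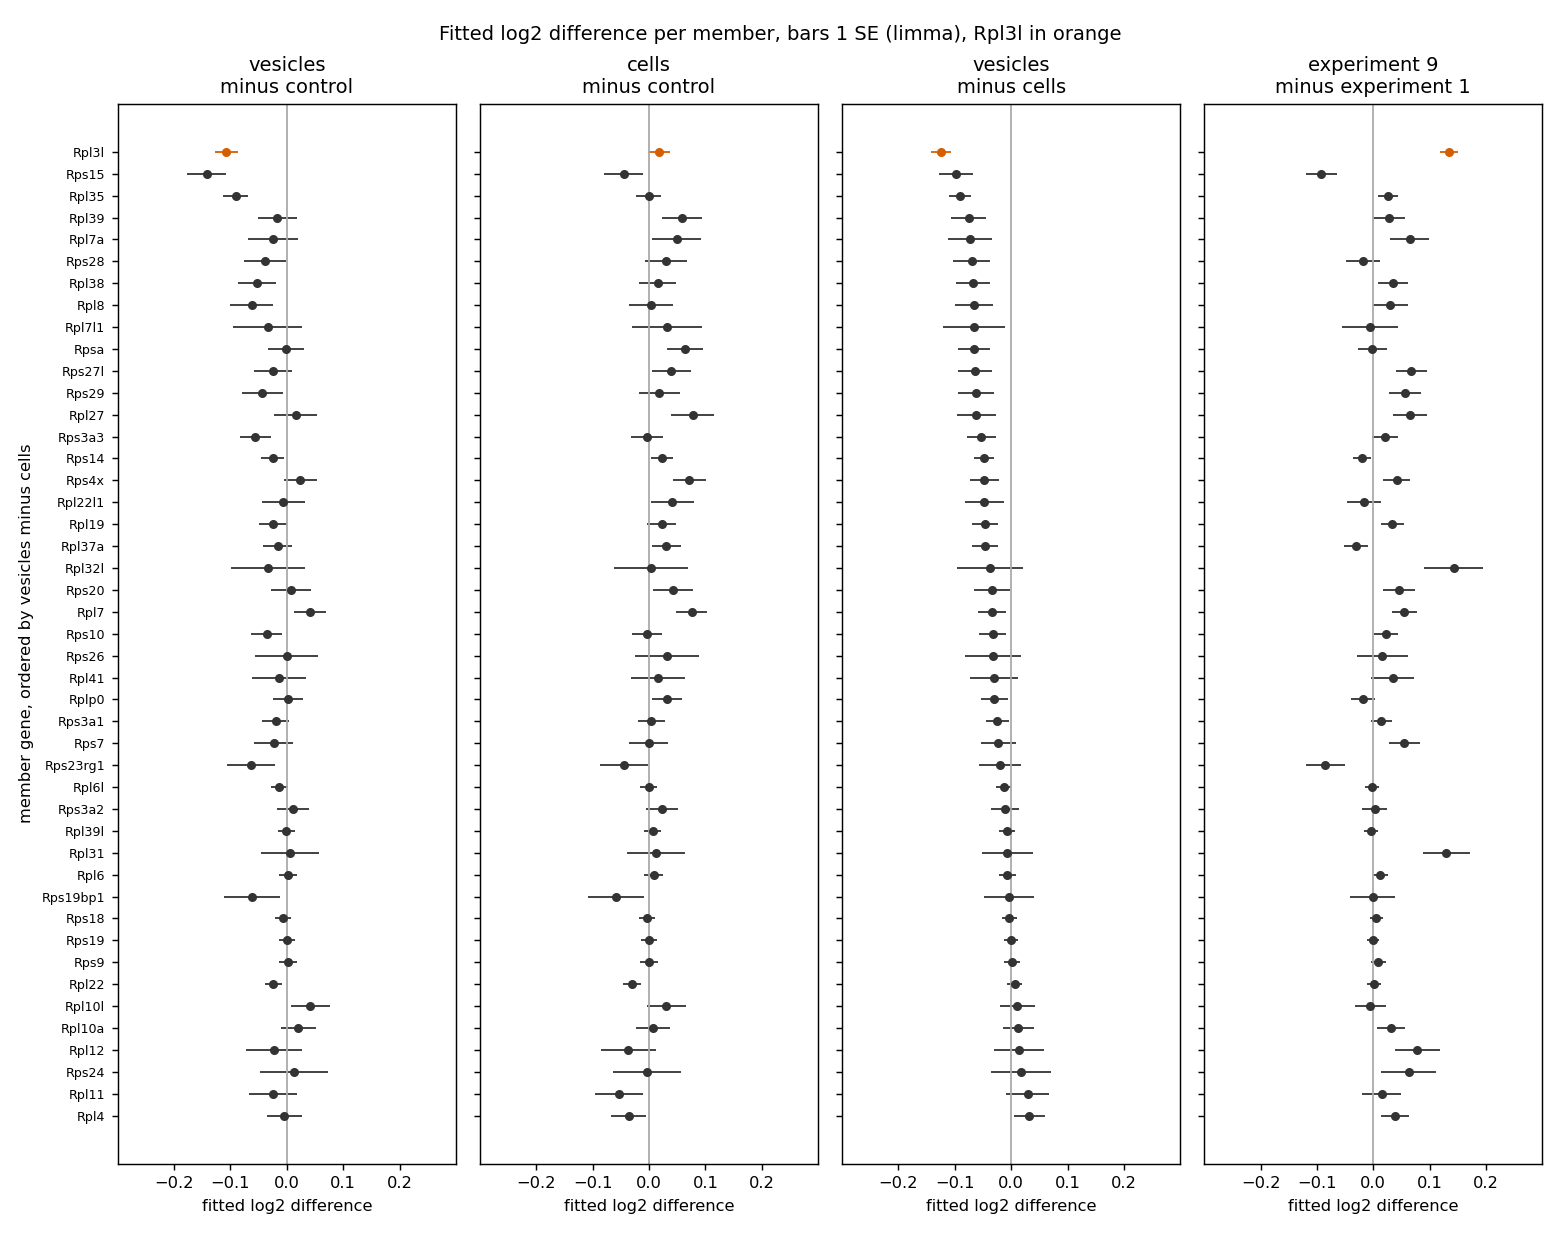
Fitted log2 difference of each of the 45 members (points, bars 1 SE from limma) in the 4 comparisons, ordered by vesicles minus cells, with Rpl3l in orange. Rpl3l, Rps15 and Rpl35 lie farthest below 0 for vesicles minus control and vesicles minus cells.

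Vesicles minus control, members lay slightly lower: 33 of 45 had a difference below 0, against 60.3% of all genes, with a median of −0.017 against −0.012 for all genes. With each array centred on its median the members' median turned to 0.0046. Of the members above background on all arrays, 22 of 28 lay below 0, against 42.9% of all such genes. At an unadjusted p under 0.05, 3 of 45 members were lower (4.53% of all genes were) and none higher (1.91%). The 3 were Rpl3l, Rps15, a small subunit protein near the decoding site, and Rpl35, a large subunit protein near the exit of the peptide tunnel. On 12 members every vesicles array lay below the control array of its own experiment, as it did for 18.3% of all genes: Rpl3l, Rpl8, Rpl22, Rpl35, Rpl37a, Rpl38, Rps15, Rps28, Rps29, Rps27l, Rps3a3 and Rps23rg1. Among those above background it held for 9 of 28, against 13.2% of such genes. The reverse held for no member and 10.6% of genes.

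Rps15 read 8.50 in control 1 and 8.60 in control 2, against 8.34, 8.43 and 8.49 in vesicles 1, 2 and 3. All vesicles arrays lay below both controls, and the difference was −0.14 ± 0.035 (0.906-fold, limma adjusted p = 0.675), −0.16 in experiment 9 and −0.14 in experiment 1. In the cells arrays it read 8.48, 8.50 and 8.58, and in sham 1 8.50. Rpl35 read 10.34 and 10.31 in controls 1 and 2, 10.23, 10.21 and 10.25 in vesicles 1 to 3, 10.35, 10.32 and 10.30 in cells 1 to 3, and 10.29 in sham 1. The vesicles arrays lay below all others, by −0.091 ± 0.022 from control (0.939-fold, limma adjusted p = 0.675), with −0.11 in experiment 9 and −0.081 in experiment 1. This rests on a probe set named for another chromosome. The Rpl35 probe set of the gene's own chromosome gave −0.039 ± 0.026. Lowest by p among the members that lay higher after vesicles was Rpl7, a large subunit protein, with 0.041 ± 0.028, below background on every array.

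Other members of this comparison lay within about 2 SE of 0. Rps3a3, a retrogene, had −0.056 ± 0.028, Rpl38 −0.052 ± 0.033, and Rpl22, a large subunit protein that also binds RNA outside the ribosome, −0.024 ± 0.015. In these hearts fibroblast markers lay higher after vesicles (7 of 7, median 0.14) and cardiomyocyte markers lower for 6 of 9 (median −0.029). Also higher were 6 of 6 endothelial, 5 of 6 mural, 5 of 7 macrophage and 5 of 5 epicardial and mesothelial markers. So were 5 of 5 lung and 3 of 4 proliferation markers. Lower were 6 of 6 T and NK lymphocyte, 3 of 3 B lymphocyte and 2 of 2 erythroid markers. Skeletal muscle markers were split, 3 higher and 2 lower. Of all genes 38.6% lay higher and 60.3% lower. No marker passed the adjusted threshold, and the markers' part in the members' values was not tested.

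Cells minus control, 30 of 45 members lay above 0 against 43.2% of all genes, with a median of 0.013 against −0.0064; with quantile normalization the members' median turned to −0.013. Of the 28 members above background, 20 lay above 0, against 67.6% of such genes. Rpl7 was the only member with an unadjusted p under 0.05, in a direction taken by 1.68% of genes at that p (5.05% lay lower). It read 6.87 in control 1 and 6.81 in control 2, 6.97 in cells 1, and 6.87 in cells 2 and cells 3, the same 6.87 as in all vesicles arrays. The difference of 0.076 ± 0.028 (limma adjusted p = 0.682) therefore reflects 1 high and 1 low array, all below background. Every cells array lay above its control for 8 members (8.86% of all genes): Rpl3l, Rpl7, Rpl7a, Rpl27, Rpl39, Rplp0, Rps4x and Rps26. Of the 28 above background 7 did so, against 16% of such genes. For Rps26 this order rests on a near tie, cells 2 at 10.0936 and control 2 at 10.0933. A second Rps26 probe set, named for another chromosome, read 9.95 in cells 2 and 9.98 in control 2. Rpl3l was also close in experiment 1, at 8.6260 in cells 2 and 8.6206 in control 2. Every cells array lay below its control for Rpl4, Rpl22 and Rps15 (17.5% of genes), all 3 above background, where 5.68% of genes did so.

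Rps4x, the X-linked form of a small subunit protein, read 7.82, 7.74 and 7.72 in cells 1 to 3 and 7.72 and 7.67 in the controls, a difference of 0.071 ± 0.029 (limma adjusted p = 0.682). Rpl27 differed by 0.077 ± 0.038 and Rpsa, a small subunit protein also known as a laminin receptor, by 0.064 ± 0.032. Rpl27 is also read from a probe set named for another chromosome, and that of its own chromosome gave 0.0054 ± 0.014 at a mean of 6.41, below background. Lowest by p among the members below 0 was Rpl22, with −0.030 ± 0.015.

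Vesicles minus cells, 36 of 45 members lay below 0 against 50.6% of all genes, with a median of −0.033 against −0.00070 for all genes. The median stayed below 0 under every alternative tried, between −0.047 and −0.017. Of the 28 members above background, 24 lay below 0, against 56.5% of such genes. At an unadjusted p under 0.05, 4 members were lower (2.59% of all genes) and none higher (1.75%): Rpl3l, Rpl35, Rps15 and Rps14. Rpl35 differed by −0.090 ± 0.019 (−0.018 ± 0.023 on the other probe set), Rps15 by −0.098 ± 0.031 and Rps14 by −0.048 ± 0.018, each with an adjusted p of 0.920 from limma. Rps14, a small subunit protein, lay below background on every array. Next by p came Rpl39, a large subunit protein of the peptide tunnel (−0.075 ± 0.031), Rpl38 (−0.068 ± 0.030) and Rpsa (−0.065 ± 0.029). Rps28 had −0.070 ± 0.033 and Rpl19 −0.047 ± 0.023. The differences above 0 were led by Rpl4, at 0.032 ± 0.027, and Rpl11, at 0.029 ± 0.038; Rpl10a had 0.013 ± 0.027. In each experiment all vesicles arrays lay below all cells arrays for 7 members (5.71% of genes): Rpl3l, Rpl35, Rps3a1, Rps10, Rps14, Rps15 and Rps28. Among those above background it held for 4 of 28, against 9.42% of such genes. The reverse held for no member and 4.38% of genes. Fibroblast markers lay higher after vesicles than after cells for 6 of 7 (median 0.17) and cardiomyocyte markers lower for 6 of 9 (median −0.026). Higher too were 4 of 6 mural, 5 of 7 macrophage and 2 of 3 B lymphocyte markers. So were 4 of 5 epicardial and mesothelial and 5 of 5 lung markers. Lower were 4 of 6 T and NK lymphocyte and 3 of 4 proliferation markers. Endothelial, erythroid and skeletal muscle markers were evenly split. Of all genes 46% lay higher and 50.6% lower. No marker passed the adjusted threshold, and the markers' part in the members' values was not tested.

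The mean deviation of the 45 members from their gene means was −0.0033, −0.031 and −0.023 in vesicles 1 to 3 and 0.035, 0.0058 and 0.0014 in cells 1 to 3. In the controls it was 0.012 and −0.0012, and in sham 1 0.0042. All vesicles arrays thus lay below all cells arrays in this mean. The members' median of vesicles minus cells was −0.029 within VTS3, −0.028 within VTS1 and −0.019 within VTS2. Cells 1 was the highest array of all 9 for 18 of 45 members (12.2% of all genes), and vesicles 2 the lowest for 11 (7.76%). For the 28 members above background these counts were 12 (19.4% of such genes) and 9 (5.09%). Leaving out each array in turn, the median difference of vesicles from cells was −0.039 to −0.026. Cells 3 was highest for 10 members (14.9%), Rplp0, Rpl8, Rps28 and Rpsa among them, and lowest for 7 (12.7%), Rpl4, Rpl11, Rpl12, Rpl31, Rps7, Rps20 and Rps24. Of the 28 above background it was highest for 7 and lowest for 4, near the 26.3% and 11.9% of such genes.

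**Figure D3:**
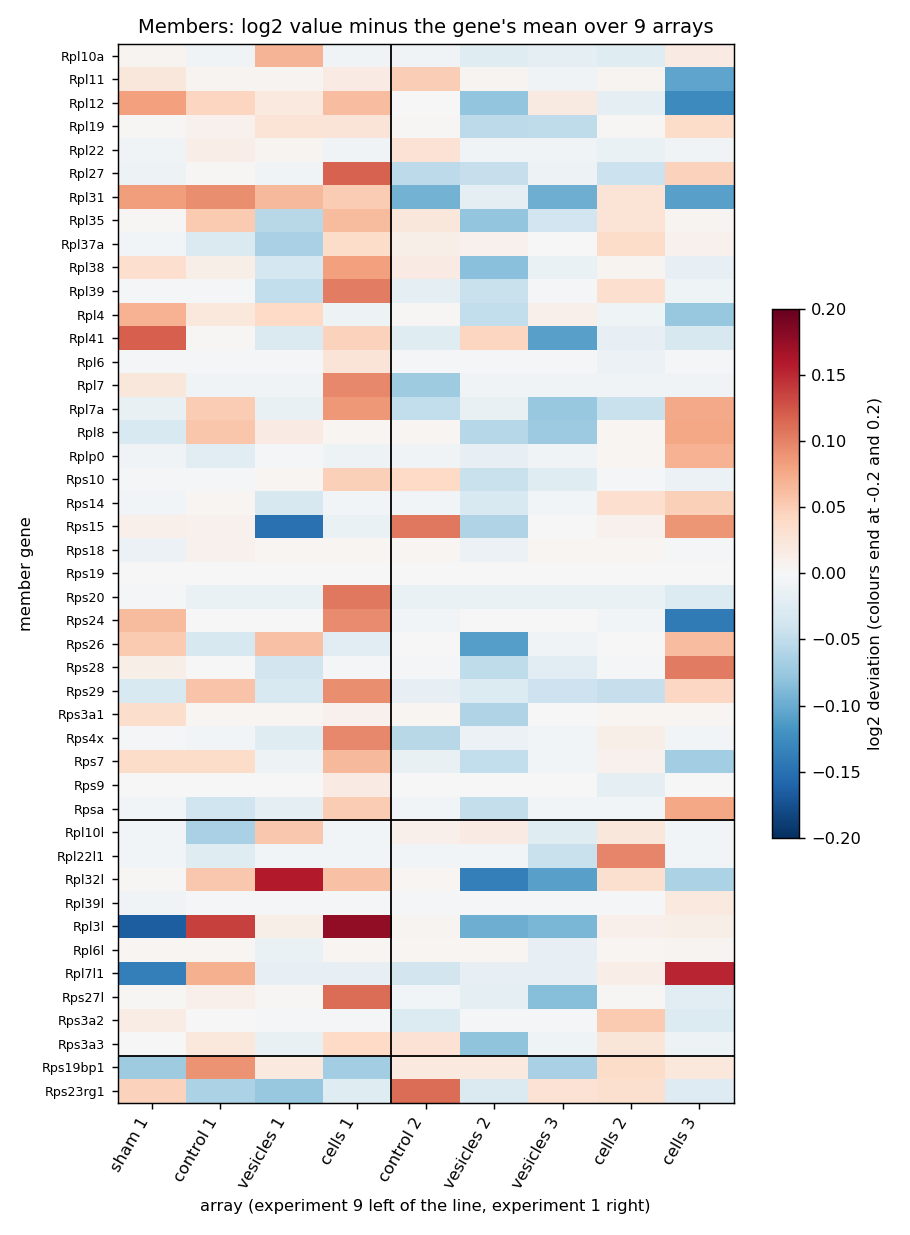
Log2 value of each member on each array relative to the member's own average (colour, red above and blue below the mean), with ribosomal proteins on top, paralogues and retrogenes in the middle and the other 2 proteins at the bottom. Cells 1 holds the highest value for 18 of 45 members and vesicles 2 the lowest for 11, and Rpl3l has the widest range (0.34).

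Experiment 9 minus experiment 1, 31 of 45 members lay above 0 against 40.7% of all genes, with a median of 0.021 against −0.010; of the 28 above background, 22 did, against 68.6% of such genes. The large subunit proteins leaned further (16 of 18, median 0.032) than the small subunit proteins (10 of 15, median 0.014), a difference that was not tested. At an unadjusted p under 0.05, Rpl3l, Rpl31 and Rpl32l were higher (6.2% of all genes) and Rps15 lower (6.56%). Rpl31 differed by 0.13 ± 0.041 (limma adjusted p = 0.356), below background on every array. Rpl32l, a relative of Rpl32, differed by 0.14 ± 0.053 (limma adjusted p = 0.389) and Rps15 by −0.092 ± 0.028 (limma adjusted p = 0.350). The 3 injected experiment 9 arrays lay above all experiment 1 arrays for Rpl3l, Rpl12, Rpl31 and Rpl32l (4.18% of all genes; 3 of the 28 above background, against 13% of such genes) and below them for no member (2.74%). For Rpl3l this order rests on a near tie, vesicles 1 at 8.6274 and cells 3 at 8.6264. Rpl32l ran from 9.79 in vesicles 2 to 10.09 in vesicles 1, so its extremes were both vesicles arrays, 1 in each experiment.

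The sham heart has 1 array, and its values are compared with control 1 of the same experiment without a test. Of the 45 members, 21 lay higher (38.8% of all genes) and 18 lower (40.9%), and the median difference was 0. Rpl3l lay lowest of all, at −0.30, followed by Rpl7l1 (−0.21) and Rps19bp1 (−0.16), and the highest was Rpl41 (0.12). Sham 1 was the lowest of the 9 arrays for Rpl3l, Rpl7l1, Rpl39l, Rps18 and Rps19bp1 (9.92% of all genes) and the highest for Rpl4, Rpl12, Rpl41 and Rps3a1 (7.56%). The probe set of Rpl3 and Gm12816 lay 0.19 above control 1. All 9 cardiomyocyte markers lay lower in sham 1 than in control 1 (median −0.066) and all 7 macrophage markers higher (median 0.19). Fibroblast markers lay higher for 6 of 7 (median 0.28) and epicardial and mesothelial markers for 4 of 5 (median 0.12). Endothelial markers lay lower for 6 of 6 (median −0.10). Of 5 lung markers 3 lay higher and 1 lower (median 0.34, highest 1.84). The markers' part in the Rpl3l value was not tested.

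Besides Rpl3l, 3 paralogues were set against their general form, but each pair holds a probe set above background on no array (Rpl7, Rpl22l1 or Rpl39l), so a shift between the paralogues could not be read from them. Rpl7l1, a relative of Rpl7 found in precursor ribosomes, ran from 7.49 in sham 1 to 7.78 in cells 3, and its difference from Rpl7 changed by −0.075 ± 0.081 after vesicles and −0.044 ± 0.081 after cells. Rpl22l1, the paralogue of Rpl22, lay below background, at 4.52 to 4.66, while Rpl22 lay at 7.64 to 7.68. Their difference changed by 0.017 ± 0.041 after vesicles and 0.071 ± 0.041 after cells. Rpl39l, best known from testis, had the same value of 4.67 on 7 arrays, and Rpl39 ran from 7.70 to 7.85; their difference changed by 0.016 ± 0.042 and −0.052 ± 0.042. No p was computed for these changes. Rpl10l, also a testis form, lay below background at 5.72 to 5.84.

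Rplp0 is the base of the ribosomal stalk, which recruits elongation factors, and is often used as a reference gene. It ranged over only 0.089, from 9.63 in control 1 to 9.72 in cells 3. Its differences were 0.0017 ± 0.027 (vesicles minus control, 95% interval −0.067 to 0.070), 0.031 ± 0.027 (cells minus control) and −0.030 ± 0.024 (vesicles minus cells). Rpsa read 8.56, 8.53 and 8.57 in vesicles 1 to 3, 8.63, 8.57 and 8.66 in cells 1 to 3, 8.54 and 8.57 in the controls and 8.57 in sham 1. After Rpl3l, the widest ranges were those of Rpl32l (0.29), Rpl7l1 (0.29), Rps15 (0.26) and Rps24 (0.24). Rps24, a small subunit protein, was highest in cells 1 (7.37) and lowest in cells 3 (7.13), so its spread lay within a single group. The narrowest were those of Rps19 (0.0008, with 8 arrays tied), Rps18 (0.021) and Rpl6l (0.022).

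Genes that act with the ribosome were read from lists by name, and none passed the adjusted threshold in any comparison. Of all genes, 38.6% lay higher and 60.3% lower after vesicles, 43.2% higher after cells and 40.7% higher in experiment 9. Of genes above background on all arrays, 57% lay higher after vesicles, 67.6% after cells and 68.6% in experiment 9. Of the fusion genes only Fau, which makes Rps30 fused to a ubiquitin-like protein, was measured; it differed by −0.043 ± 0.026 after vesicles. Of 45 ribosome assembly factors, 22 lay higher and 21 lower after vesicles (median 0), with Nop16, a nucleolar protein, at −0.11 ± 0.016 and Imp3, a part of the small subunit processome, at −0.13 ± 0.032. Of 14 RNA polymerase I genes, 9 lay lower and 5 higher after vesicles, none with an unadjusted p under 0.05. Of 29 initiation factors, 16 lay higher after vesicles and 22 after cells, and 25 in experiment 9 (median 0.034). Among them Eif4e, the cap-binding protein, differed between the experiments by 0.23 ± 0.055, Eif4g2 by 0.094 ± 0.023 and Eif1ax by 0.10 ± 0.026. Of 11 elongation and termination genes, 8 lay higher in experiment 9, with Eef2k, the kinase of elongation factor 2, at 0.094 ± 0.026. Of 11 genes of mTOR and Myc control, 6 lay lower and 5 higher after vesicles, and Myc differed by −0.18 ± 0.053 between the experiments.

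The mitochondrial ribosome, a separate machine that makes the respiratory proteins coded in mitochondrial DNA, was compared because its proteins are named and chosen in the same way. Of its 79 genes, 66 lay lower after vesicles than after medium (median −0.040) and 71 lower than after cells (median −0.051). The cytosolic counts given above were 33 and 36 of 45. Of all genes, 60.3% and 50.6% lay lower in these comparisons, and of genes above background on all arrays 42.9% and 56.5%. After cells 50 of 79 lay above control (median 0.015), and 66 lay higher in experiment 9 (median 0.045). Among all genes 43.2% and 40.7% did so, and among those above background 67.6% and 68.6%. In sham 1, 68 lay below control 1 (median −0.094), as did 40.9% of all genes, where the cytosolic members had a median of 0. By array, the mean deviation of the mitochondrial list was highest in cells 1 (0.058) and control 1 (0.056) and lowest in vesicles 3 (−0.067). Sham 1 read −0.032 for the mitochondrial and 0.0042 for the cytosolic proteins. The lists were not tested against each other.

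**Figure D4:**
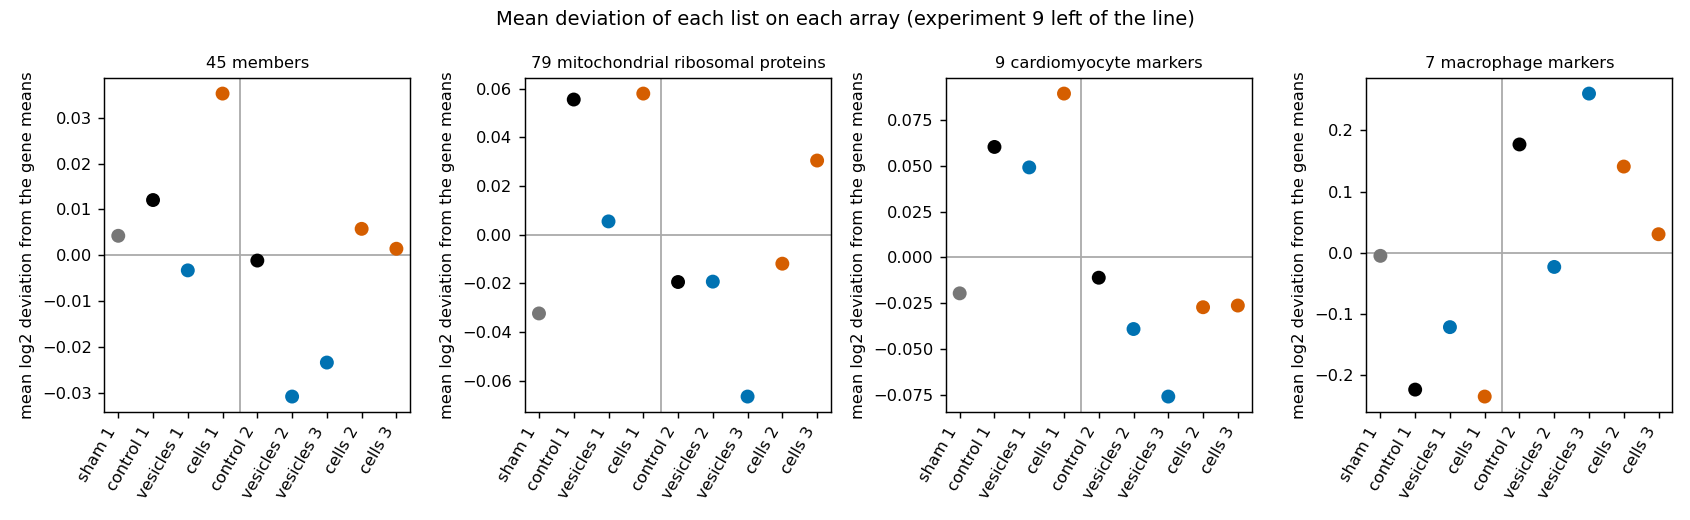
Mean log2 deviation from the gene means on each array (points, coloured by group as for Rpl3l; the y scales differ) for the 45 members, 79 mitochondrial ribosomal proteins, 9 cardiomyocyte markers and 7 macrophage markers, with experiment 9 left of the vertical line. Cells 1 is the highest array for the first 3 lists, and the members span −0.031 to 0.035.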

How the data were processed

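Whole-heart RNA was hybridised to 9 Affymetrix whole-transcript arrays, per the labels' protocols. The authors deposited 1 value per probe set and array, read here as log2 because values run from 1.55 to 14.2 and taken as normalized because array medians are alike. The sources used here do not give the log base or the normalization; the submitters' processing notes name Partek. Of 80202 probe sets, 30604 carry 1 symbol in the platform table and 2146 several, which were left out, as were unnamed ones; 30145 genes remained. Differences were fitted in limma 3.58.1 (R 4.3.3; lmFit, eBayes) on the 8 injected arrays, with experiment as a fixed block, 4 residual and 1.18 prior degrees of freedom, two-sided, and Benjamini-Hochberg adjusted over all genes at 0.05. The steps were tested on simulated data. Arrays carry no read depth; their number limits precision.

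Groups follow the treatment label. The sham array was described by value. Rpl3l minus the shared Rpl3 probe set was tested by exact permutation. Every member is named at least once; full values went to Rpl3l, Rpl3, paralogue pairs, Rplp0 and Rpsa, to up to 5 members a direction with the lowest unadjusted p, and to the 5 widest and 3 narrowest ranges, and Rpl19, Rpl22, Rpl38 and Rps28 were given further values after theirs were seen. Up to 3 genes of each other list were named by lowest unadjusted p. Members, lists and tests were chosen with earlier results of these data known. Marker lists of endothelial, mural, lymphoid, erythroid, epicardial, skeletal muscle and proliferating cells were also read. Alternatives covered the block, centring, quantile normalization, filters, probe set choice, the prior, sham as a control and leaving out each array. RefSeq promoters of GRCm38.p6 were searched for pyrimidine runs and the MEF2 consensus.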

Additional observations from a re-analysis of the deposited data

Results flagged for a closer look

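For 16 of the 45 members a treatment's difference from control had opposite signs in the 2 experiments, for every array. These differences between experiments were not tested, and each rests on a single control array per experiment. The same held for 9 members and 23.7% of all genes after vesicles, and for 10 members and 25.2% of all genes after cells, so the members' counts lay near the share over all genes. After vesicles, Rpl10a lay 0.075 above control in experiment 9 and at −0.015 in experiment 1, Rpl32l at 0.10 and −0.13, Rps26 at 0.090 and −0.058, and Rpl19 at 0.020 and −0.054. Rpl27 lay at −0.0085 and 0.025, Rps4x at −0.018 and 0.047, and Rps3a2 at −0.0030 and 0.024. Rpl7l1 lay at −0.087 in experiment 9 after vesicles and after cells alike, and at 0.021 and 0.12 in experiment 1. Rps10 lay at 0.0082 after vesicles and 0.052 after cells in experiment 9, and at −0.074 and −0.047 in experiment 1. After cells, Rpl11 lay at 0.011 in experiment 9 and −0.10 in experiment 1, Rpl12 at 0.018 and −0.073, Rpl38 at 0.070 and −0.022, Rps23rg1 at 0.040 and −0.11, and Rps3a3 at 0.020 and −0.022. Rps14 lay at −0.0089 and 0.046, Rps19bp1 at −0.16 and 0.010, and Rps3a2 at −0.0023 and 0.041. No group has the 4 arrays needed to test for a single outlying array.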

How the results depend on the processing

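No member passed the adjusted threshold under any alternative. Over all genes the count rose from 0 to 1 for cells minus control with sham among the controls. Between experiments it rose to 2 without genes tied on 3 or more arrays. It also rose for vesicles minus control and cells minus control without control 1, where control 2 was the only control array. Rpl3l kept its sign in every alternative for vesicles minus control, vesicles minus cells and the experiments. Cells minus control it turned to −0.0045 without the block, −0.023 with quantile normalization and −0.0013 without cells 1 (−0.0013 to 0.023 leaving out each array). Rpl3l minus Rpl3, vesicles minus control, turned to 0.062 with sham among the controls. Between experiments it passed an unadjusted exact p of 0.05 with quantile normalization (0.17, exact permutation p = 0.0357), without vesicles 1 and without cells 2. Leaving out each array in turn, that difference ran from 0.14 to 0.19, whether or not it passed. The members' median moved as follows. Centring each array on its median gave 0.0046 (vesicles minus control), 0.042 (cells minus control), −0.041 (vesicles minus cells) and 0.054 (experiments), and quantile normalization gave −0.013, −0.017 and 0.0062 for the last 3. Without the block, cells minus control was 0.0066. For vesicles minus control, leaving out genes above background on fewer than 2 arrays or averaging a gene's probe sets gave −0.023 each, as did leaving out tied genes (−0.023). For vesicles minus cells, members above background alone gave −0.047. Between experiments, that filter on dim genes gave 0.030, own-chromosome probe sets 0.015, untied genes 0.035, members above background 0.031 and ribosomal proteins alone 0.028. Leaving out each array in turn gave −0.021 to −0.0043, 0.0026 to 0.019, −0.039 to −0.026 and 0.012 to 0.032 for the 4 comparisons in that order. The settings on probe set chromosome, tied genes, members above background and ribosomal proteins alone were chosen after seeing the data. The causes of these moves were not tested. With the VTS number as block in place of the experiment, Rpl3l differed by −0.11 (vesicles minus control), 0.017 (cells minus control), −0.13 (vesicles minus cells) and 0.14 (experiments), and no call changed. By replicate number, no paired analysis was possible because the titles give every array the same one. Signals of 13 members did not exceed background on any array.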
